A study of Mus musculus with 12 samples.

Results

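Macrophage markers were followed here in whole forelimb buds of mouse embryos that lacked Tbx3 or Hand2. The 10 markers were chosen by name, as genes used to recognise macrophages: Cx3cr1, Csf1r, Mrc1, Fcer1g, Tyrobp, C1qa, C1qb, C1qc, Aif1 and Cd68. All 10 were found among the 53465 genes of the count tables. Tbx3 and Hand2 are transcription factors that limb mesenchyme uses in early patterning, and the study compared buds lacking each of them with wild-type buds. Each library was made from the forelimb bud pair of 1 embryo, with 3 libraries in each of 4 groups and 12 in all.

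Macrophages reach the early embryo before the definitive blood system is established. The first of them arise from progenitors of the yolk sac and enter the tissues, where they engulf dying cells. They depend on signalling through the receptor CSF1R, sense the chemokine fractalkine through CX3CR1, secrete the C1q complement protein and carry scavenging receptors such as CD206, the product of Mrc1. In limb buds they are best known for clearing cells that die during shaping of the limb.

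The Tbx3-deficient buds were Tbx3ΔVenus/ΔVenus, in which a Venus reporter followed by a stop of transcription sits at the start codon of both Tbx3 copies. They were compared with wild-type buds of the same stage, E9.75 to E10 with 28 to 31 somites. The Hand2-deficient buds were Prrx1-Cre;Hand2Δ/Δc, in which 1 allele was already deleted and the other was removed by a Cre active in limb mesenchyme. They were compared with Prrx1-Cre;Hand2+/+ buds of E10 to E10.25 with 31 to 33 somites, and both Hand2 groups therefore carried the Cre. All embryos were Swiss albino mice. Stage, gene and kind of loss differ together between the Tbx3 and the Hand2 series.

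Libraries of the Tbx3 series held 23.3 to 31.8 M counts (1 M being 1e+06) and those of the Hand2 series 60.2 to 68.6 M counts. Values are CPM, counts per 1e+06 counts of the library after scaling within each series, and 3 counts correspond to 0.0947 to 0.130 CPM in the Tbx3 series and to 0.0437 to 0.0509 CPM in the Hand2 series. Hand2 itself stood at 0.186, 2.22 and 0.378 CPM in Hand2-deficient buds, against 119.6, 120.3 and 125.7 CPM in their wild types. Tbx3 stood at 73.3 to 80.6 CPM in Tbx3-deficient buds and at 77.3 to 79.3 CPM in wild type, so that its RNA level did not separate the Tbx3 groups and they rest on their labels. Replicate 1 of the Hand2-deficient buds held 5.37% of its counts on the single gene CT010467.1, against 0.128% to 0.581% in the other libraries. By Xist and Y-linked genes, the Tbx3-deficient buds came from 2 male embryos and 1 female, and their wild types from 3 females. The Hand2-deficient buds came from 2 males and 1 female, and their wild types from 1 male and 2 females.

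All 10 markers were rare transcripts. Of their 120 values, 33 were below 10 counts, 1 was 0 and the highest was 319 counts, for Csf1r in replicate 1 of the Hand2-deficient buds. The sum over the 10 markers was 10.9, 9.04 and 10.2 CPM in Tbx3-deficient buds, against 3.01, 2.83 and 6.45 CPM in wild type. It was 20.2, 13.3 and 11.1 CPM in Hand2-deficient buds, against 5.89, 8.97 and 5.87 CPM in their wild types. In both series every mutant library lay above every wild-type library.

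The group means of the sum were 10.0 ± 0.932 CPM in Tbx3-deficient buds and 4.10 ± 2.04 CPM in wild type (SD, n = 3 each), a ratio of 2.45. They were 14.9 ± 4.71 CPM in Hand2-deficient buds and 6.91 ± 1.78 CPM in wild type (SD, n = 3 each), a ratio of 2.15. Without replicate 3 of the Tbx3 wild types, the highest of that group, the Tbx3 ratio was 3.44, and without replicate 1 of the Hand2-deficient buds, the highest library of all, the Hand2 ratio was 1.77. In bulk tissue, a change in the number of macrophages cannot be told apart from a change in the RNA that each of them holds.

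**Figure D1:**
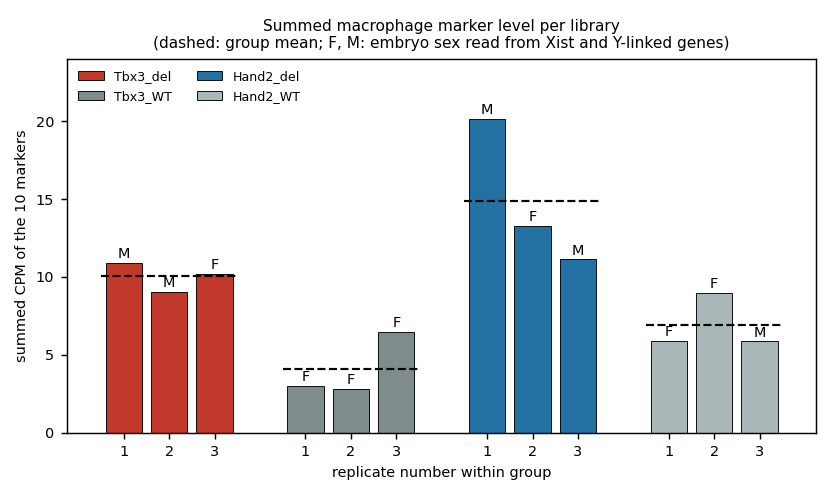
Summed CPM of the 10 macrophage markers in each of the 12 libraries, with replicates of each group side by side, the mutant group left of its wild type, and group means as dashed lines. The Tbx3-deficient libraries sit between 9.04 and 10.9 CPM and the Hand2-deficient libraries between 11.1 and 20.2 CPM, each above all wild-type libraries of its series; F and M mark the sex read from sex-linked genes.

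Embryo sex was uneven between the groups, and the sum was therefore also read within each sex. Among females, the 1 Tbx3-deficient library had 10.2 CPM against 3.01, 2.83 and 6.45 CPM in wild type, and the 1 Hand2-deficient library had 13.3 CPM against 5.89 and 8.97 CPM in wild type. Among males, the Hand2-deficient libraries had 20.2 and 11.1 CPM against 5.87 CPM in the 1 wild type. The Tbx3 series had no male wild type, so its male libraries have no counterpart. These comparisons have 1 to 3 libraries on a side and no test, and with embryo sex as a term 0 markers were called by edgeR in either series (2 of 5 for Tbx3 and 7 of 10 for Hand2 at an unadjusted p below 0.05).

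Taken marker by marker, the mean was higher in mutants for 9 of 10 markers after loss of Tbx3 and for 10 of 10 after loss of Hand2, against 49.3% and 52.1% of all tested genes. For Tbx3 the mutant libraries lay wholly above the wild types for 8 of 10 markers, all but Aif1 and Cd68. Groups were separated in that direction for 10.7% of all tested genes and for 7.91% of untested genes with at least 20 counts. In the Hand2 series they did so for 6 of 10 markers (Cx3cr1, Csf1r, Fcer1g, C1qb, C1qc and Mrc1), against 18.6% of tested genes.

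Tests were read from edgeR's quasi-likelihood fit over all genes, with a gene called at a Benjamini-Hochberg adjusted p below 0.05. In the Hand2 series all 10 markers were tested and 2 were called, C1qb and Mrc1, both higher in mutants, where 4.68% of 17488 genes were called higher and 10.5% called in either direction. At an unadjusted p below 0.05, 7 of the 10 were higher, against 15.6% of all tested genes. DESeq2 called 4 (Cx3cr1, Csf1r, C1qb and Mrc1), where it called 19.9% of genes, and edgeR without the filter called 3 (Cx3cr1, C1qb and Mrc1), where it called 5.35%. In the Tbx3 series 5 of the 10 passed the filter on low counts (10 counts, or 0.400 CPM at the median depth, in at least 3 libraries), and 0 of those 5 were called by edgeR, where 1.01% of 15130 genes were called. At an unadjusted p below 0.05, 4 of the 5 were higher, against 7.96% of tested genes. DESeq2 called 1 of the 5, Mrc1, where it called 3.64% of genes, and edgeR without the filter called 1 of 10, also Mrc1, where it called 1.81%. Csf1r, C1qb and Mrc1 met the filter in all 3 Tbx3-deficient libraries but in only 1 or 2 wild types, so the tested markers of that series were partly selected by the mutant group.

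**Figure D2:**
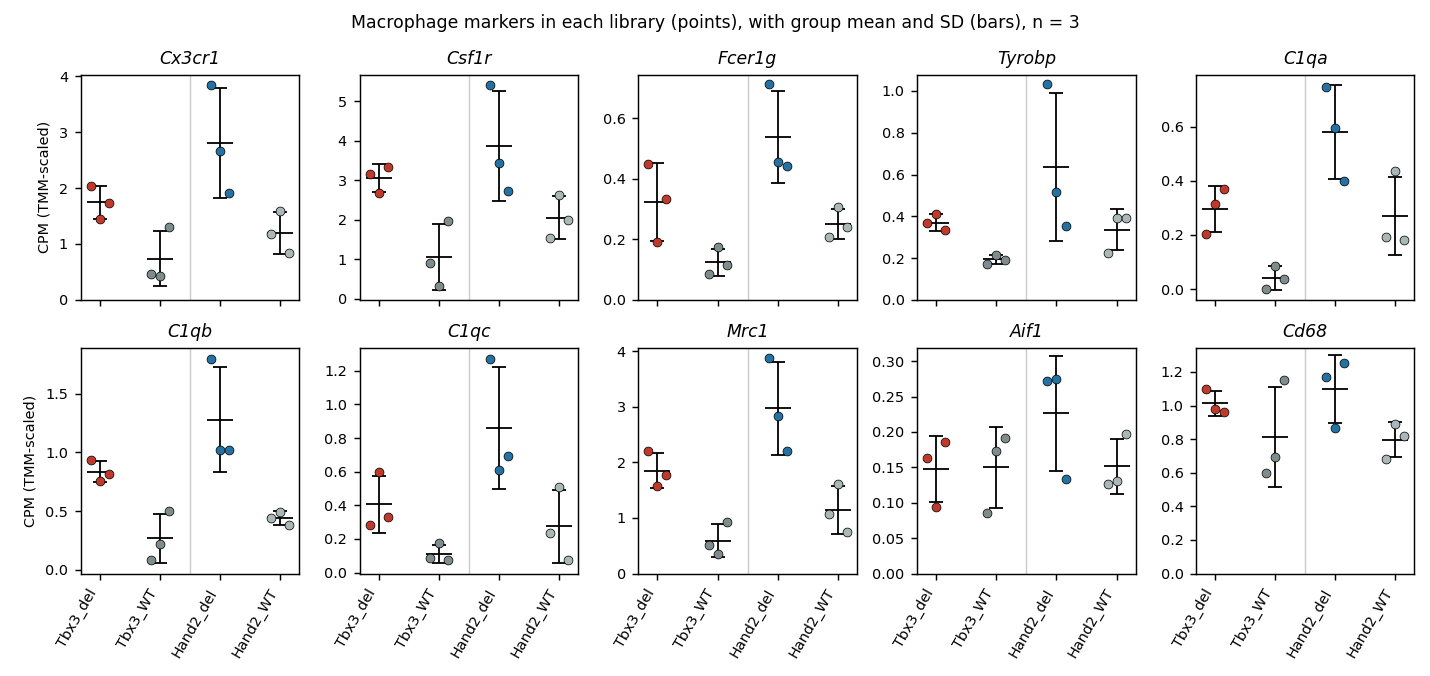
CPM of each of the 10 macrophage markers in every library (points), with the group mean and SD (bars, n = 3 each) and the mutant group left of its wild type in each series. The mutant points lie wholly above the wild-type points for 8 of 10 markers in the Tbx3 series and 6 of 10 in the Hand2 series.

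Mrc1, Csf1r and Cx3cr1 encode receptors of the macrophage surface. Mrc1 (chromosome 2, 14229392 to 14332057, plus strand, GRCm38) encodes the mannose receptor CD206, which takes up glycoproteins and marks resident tissue macrophages. It had 2.20, 1.58 and 1.78 CPM in Tbx3-deficient buds, against 0.512, 0.347 and 0.922 CPM in wild type. In the Hand2 series it had 3.87, 2.83 and 2.20 CPM in mutants, against 1.06, 1.60 and 0.756 CPM in wild type. The groups did not overlap in either series. In Hand2-deficient buds Mrc1 rose by a log2 fold change of 1.38 (SE 0.319, edgeR adjusted p = 0.0428). In Tbx3-deficient buds its log2 fold change was 1.62 (SE 0.363), which edgeR did not call (adjusted p = 0.101), although DESeq2 did (adjusted p = 0.0206).

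Csf1r (chromosome 18, 61100598 to 61132149, plus strand) encodes the receptor for the growth factors CSF1 and IL-34, on which macrophages depend for survival. It had 3.16, 2.67 and 3.34 CPM in Tbx3-deficient buds, against 0.915, 0.315 and 1.96 CPM in wild type. In Hand2-deficient buds it had 5.42, 3.45 and 2.73 CPM, against 1.55, 2.62 and 2.00 CPM in wild type, where the lowest mutant lay just above the highest wild type. Its log2 fold changes were 1.52 (SE 0.505, edgeR adjusted p = 0.227) and 0.91 (SE 0.296, edgeR adjusted p = 0.0878), neither of which was called.

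Csf1r shares 873 exonic bases, 15.1% of its exonic length, with Hmgxb3 on the opposite strand, which stood at 56.7 to 74.6 CPM. It was also the only marker with counts that were not whole, in 11 of 12 libraries, and its reads cannot be told apart from those of Hmgxb3 in the shared bases unless counting used strand. Without Csf1r, the summed level of the other 9 markers was higher in mutants by a ratio of 2.30 for Tbx3 and of 2.26 for Hand2.

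Cx3cr1 (chromosome 9, 119901616 to 120069879, minus strand) encodes the fractalkine receptor, carried by yolk-sac-derived macrophages and by microglia. It had 2.03, 1.45 and 1.74 CPM in Tbx3-deficient buds, against 0.469, 0.433 and 1.31 CPM in wild type. It had 3.85, 2.67 and 1.90 CPM in Hand2-deficient buds, against 1.17, 1.59 and 0.831 CPM in wild type. All mutant libraries were above all wild types of their series. The log2 fold changes of 1.22 in Tbx3-deficient buds (SE 0.428) and 1.23 in Hand2-deficient buds (SE 0.324) did not pass the threshold (edgeR adjusted p = 0.253 and 0.0554).

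Fcer1g and Tyrobp encode small signalling adaptors, the Fc receptor gamma chain and DAP12, that pair with activating receptors and carry ITAM motifs. Fcer1g (chromosome 1, 171229572 to 171234365, minus strand) had 0.448, 0.189 and 0.333 CPM in Tbx3-deficient buds, against 0.0854, 0.173 and 0.115 CPM in wild type. It averaged 0.538 ± 0.152 CPM in Hand2-deficient buds and 0.251 ± 0.0503 CPM in wild type (SD, n = 3 each). Tyrobp (chromosome 7, 30413760 to 30417585, plus strand) averaged 0.370 ± 0.0386 CPM in Tbx3-deficient buds and 0.193 ± 0.0230 CPM in wild type, and 0.636 ± 0.356 CPM in Hand2-deficient buds and 0.336 ± 0.0986 CPM in wild type (SD, n = 3 each). Both were too low to be tested in the Tbx3 series, where their groups did not overlap. In the Hand2 series Fcer1g was separated between the groups and Tyrobp was not, and neither passed the test (log2 fold change 1.08, SE 0.302, and 0.90, SE 0.448, with edgeR adjusted p = 0.0624 and 0.209).

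C1qa, C1qb and C1qc encode the 3 chains of C1q, the recognition protein of the classical complement pathway, and lie next to each other on chromosome 4 on the minus strand. C1qb (136880129 to 136886187) had 0.936, 0.757 and 0.815 CPM in Tbx3-deficient buds, against 0.0854, 0.217 and 0.499 CPM in wild type. It had 1.799, 1.02 and 1.02 CPM in Hand2-deficient buds, against 0.444, 0.495 and 0.378 CPM in wild type. No wild-type library of the Hand2 series reached even 0.50 CPM, and no mutant lay below 1 CPM. C1qb rose in Hand2-deficient buds by a log2 fold change of 1.54 (SE 0.290, edgeR adjusted p = 0.0276). In Tbx3-deficient buds its log2 fold change was 1.60 (SE 0.514, edgeR adjusted p = 0.216), which was not called.

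C1qa (136895917 to 136898803) had 0.203, 0.316 and 0.370 CPM in Tbx3-deficient buds, against 0, 0.0866 and 0.0384 CPM in wild type, which amounts to 25 counts against 3 over the 3 libraries of each group. The ratio of those counts at equal depth was 7.26, with a 95% exact interval of 2.22 to 37.6 that covers counting error only. In the Hand2 series it had 0.747, 0.594 and 0.399 CPM in mutants, against 0.190, 0.437 and 0.181 CPM in wild type, with overlap. C1qc (136889804 to 136893065) had 0.285, 0.5996 and 0.333 CPM in Tbx3-deficient buds, against 0.0854, 0.173 and 0.0768 CPM in wild type. It had 1.27, 0.609 and 0.694 CPM in Hand2-deficient buds, against 0.238, 0.509 and 0.0756 CPM in wild type. All 3 chains were thus higher in mean in both mutants, but in the Hand2 series the log2 fold changes of C1qa (1.09, SE 0.421) and C1qc (1.63, SE 0.601) did not pass the test (edgeR adjusted p = 0.127 and 0.115).

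Aif1 and Cd68 had the smallest log2 fold changes of the 10 markers in both series. Cd68 (chromosome 11, 69664213 to 69666153, minus strand), a lysosomal and endosomal glycoprotein of macrophages, had 1.10, 0.978 and 0.963 CPM in Tbx3-deficient buds, against 0.598, 0.693 and 1.15 CPM in wild type. It had 1.17, 0.868 and 1.25 CPM in Hand2-deficient buds, against 0.682, 0.888 and 0.816 CPM in wild type. The groups overlapped in both series and the log2 fold changes of 0.30 (SE 0.317) and 0.46 (SE 0.213) were not called (edgeR adjusted p = 0.721 and 0.182). Aif1 (chromosome 17, 35170991 to 35176068, minus strand), which encodes the actin-bundling protein IBA1, averaged 0.148 ± 0.0471 CPM in Tbx3-deficient buds and 0.150 ± 0.0570 CPM in wild type, and 0.226 ± 0.0808 CPM in Hand2-deficient buds and 0.151 ± 0.0390 CPM in wild type (SD, n = 3 each). It was not tested for Tbx3, and its log2 fold change in Hand2-deficient buds was 0.56 (SE 0.403, edgeR adjusted p = 0.366).

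**Figure D3:**
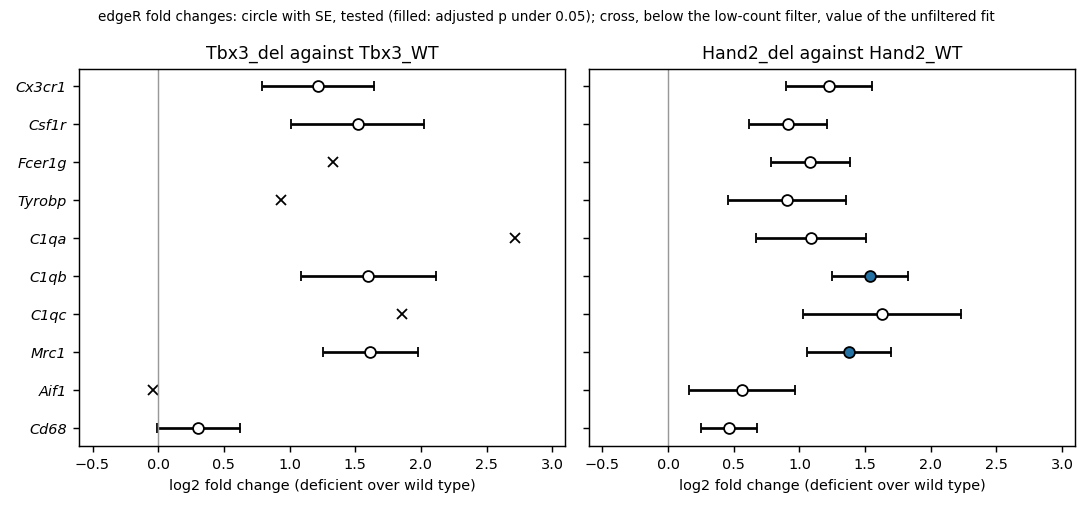
Log2 fold changes of the 10 macrophage markers, mutant over wild type, for Tbx3 (left) and Hand2 (right). Circles with SE bars were tested and are filled where called (C1qb and Mrc1 in the Hand2 series); crosses mark markers below the low-count filter, with the value of a fit without it.

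Across the 10 markers the median log2 fold change in Hand2-deficient buds was 1.09, where the median over all genes was 0.01. For Tbx3 a fit without the filter, which keeps all 10 markers, gave a median of 1.43 against 0.01 over all genes. The difference between the Hand2 and the Tbx3 effect, which carries the errors of both, was tested in 1 fit of all 12 libraries. It ran from -1.68 for C1qa (SE 0.910) to 0.16 for Cd68 (SE 0.366) over the 9 markers tested. Of the 9, 0 were called by edgeR (adjusted p from 0.368 to 0.998), where 1.68% of 17360 genes were called, and 0 had an unadjusted p below 0.05, against 17.4% of genes. DESeq2 gave an adjusted p for 7 of them and called 0, where it called 4.95%. The SE of the difference ran from 0.366 to 0.910, and missing the threshold does not show that both losses act alike.

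The calls of C1qb and Mrc1 in the Hand2 series depended on single libraries. C1qb was no longer called without mutant replicate 1 (edgeR adjusted p = 0.0527), mutant replicate 3 (0.0573), wild-type replicate 1 (0.0891) or wild-type replicate 3 (0.109). Mrc1 was called in 1 of the 6 fits with a library left out, that without wild-type replicate 2 (adjusted p = 0.0280), and its adjusted p ranged from 0.0709 to 0.129 in the other 5. With embryo sex as a term, the adjusted p was 0.0696 for C1qb and 0.0716 for Mrc1. With the Hand2 libraries thinned to the Tbx3 depth, Mrc1 was not called (adjusted p = 0.0601) and C1qb was (adjusted p = 0.0405). Over all 14 alternatives the log2 fold change ranged from 1.21 to 1.68 for C1qb and from 1.14 to 1.70 for Mrc1, and the sign stayed positive.

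The promoters of the called members, C1qb and Mrc1, and of Cx3cr1, whose level followed the sum of the others most closely, are shown as the 250 bases upstream of the RefSeq transcription start, from the RefSeq table of build GRCm38.p6, 5′ to 3′ on the gene's own strand. Capitals mark GAGGAA on either strand, with TTCCTC as its reverse complement. GAGGAA is a form of the motif recognised by the myeloid transcription factor PU.1, and other forms were not marked.
C1qb: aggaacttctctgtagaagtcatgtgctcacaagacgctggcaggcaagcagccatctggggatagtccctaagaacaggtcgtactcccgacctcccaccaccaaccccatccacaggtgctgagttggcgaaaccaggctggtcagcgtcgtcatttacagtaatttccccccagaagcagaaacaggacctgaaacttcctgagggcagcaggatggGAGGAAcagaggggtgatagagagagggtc
Mrc1: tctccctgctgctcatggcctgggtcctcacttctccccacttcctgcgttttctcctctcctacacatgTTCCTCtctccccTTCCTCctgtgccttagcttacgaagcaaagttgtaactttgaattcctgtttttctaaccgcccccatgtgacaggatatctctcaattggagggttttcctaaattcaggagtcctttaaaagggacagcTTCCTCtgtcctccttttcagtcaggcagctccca
Cx3cr1: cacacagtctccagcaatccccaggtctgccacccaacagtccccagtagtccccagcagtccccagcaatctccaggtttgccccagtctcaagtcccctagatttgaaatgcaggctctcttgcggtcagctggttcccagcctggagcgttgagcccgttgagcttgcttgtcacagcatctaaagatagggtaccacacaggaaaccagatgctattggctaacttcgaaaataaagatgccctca
The C1qb sequence is chr4:136886201-136886450 on the minus strand, that of Mrc1 is chr2:14229164-14229413 on the plus strand and that of Cx3cr1 is chr9:120068297-120068546 on the minus strand. On either strand, GAGGAA lay once in C1qb, at -30 from the start, and 3 times in Mrc1, at -180, -167 and -35. It was not among the letters of the Cx3cr1 window. Of 7 members whose promoter was searched, 5 held GAGGAA (C1qb, C1qc, Mrc1, Aif1 and Cd68), and 1, C1qc, held the longer GAGGAAGT. Csf1r, Tyrobp and C1qa were not searched, so these counts cover only 7 of the 10 markers. Of all 32851 promoters in the table, 23.3% held GAGGAA and 2.44% held GAGGAAGT within the same length. A match is a run of letters and not a site of binding.

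Levels between genes were compared per length, as CPM per kb of exonic sequence. Cd68 stood highest in Tbx3-deficient buds (0.806 CPM per kb), in Tbx3 wild types (0.648) and in Hand2 wild types (0.633), and C1qb stood highest in Hand2-deficient buds (1.18). Aif1 stood lowest in Tbx3-deficient buds (0.0963), in Hand2-deficient buds (0.148) and in Hand2 wild types (0.0989), and C1qa in Tbx3 wild types (0.0401). Neighbours in this order mostly overlapped over their 3 libraries, in 6, 8, 8 and 9 of 9 neighbouring pairs in Tbx3-deficient buds, Tbx3 wild types, Hand2-deficient buds and Hand2 wild types. In Tbx3-deficient buds the ranges separated C1qb from Tyrobp, Csf1r from Cx3cr1 and C1qc from Aif1. In the other groups the separated pairs were Cd68 above Tyrobp in Tbx3 wild types and C1qc above Aif1 in Hand2-deficient buds.

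**Figure D4:**
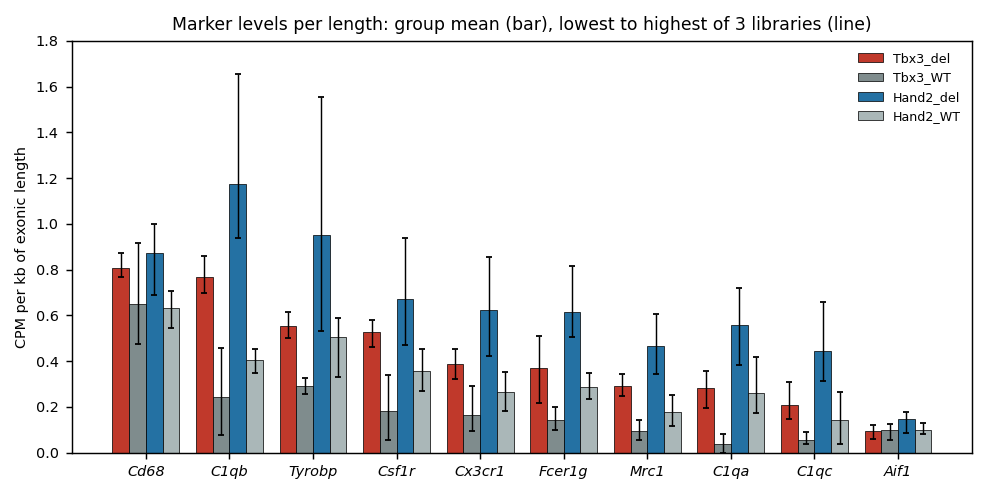
CPM per kb of exonic length for each marker in the 4 groups, with bars for the group mean and lines from the lowest to the highest of 3 libraries, the mutant group left of its wild type in each series. Cd68 leads in 3 groups and C1qb in Hand2-deficient buds (1.18 CPM per kb), and Aif1 is lowest in 3 groups.

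The markers gave unequal shares of the summed level. Csf1r gave 30.4% of the sum in Tbx3-deficient buds and 23.98% in wild type, and 25.8% in Hand2-deficient buds and 29.8% in wild type. Cx3cr1 gave 17.1% to 18.8% in all 4 groups. Cd68 gave 10.1% in Tbx3-deficient buds and 20.7% in wild type, and 7.87% in Hand2-deficient buds and 11.8% in wild type. Over the 12 libraries, the log2 level of Cx3cr1 followed that of the other 9 markers with a Pearson correlation of 0.979, that of Mrc1 with 0.974, that of C1qb with 0.962 and that of Aif1 with 0.512. After group means were removed, the correlations ran from 0.304 for C1qc to 0.947 for Cx3cr1, and both sets share the same libraries and their depths.

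Genes beyond the 10 markers were read from lists. Beside the counts of called genes below, 4.68% of all tested genes were called higher by edgeR in the Hand2 series. In the Tbx3 series 1.01% were called in either direction. Of a list of 30 further macrophage genes, 21 were tested in the Hand2 series and 2 rose, Ptprc and F13a1. Ptprc encodes the pan-leukocyte phosphatase CD45 (log2 fold change 1.18, SE 0.295, edgeR adjusted p = 0.0497). F13a1 encodes a subunit of the transglutaminase factor XIII (log2 fold change 1.27, SE 0.305, edgeR adjusted p = 0.0452). Without the filter, Ptprc was not called (adjusted p = 0.0518), F13a1 was (adjusted p = 0.0333), and Lcp1, an actin-bundling protein of leukocytes named after its values were seen, was called too (adjusted p = 0.0423). Their mean was higher in mutants for 29 of 30, and 11 of 30 were separated upwards between groups, against 18.6% of tested genes and 11.7% of untested genes with at least 20 counts. After loss of Tbx3, 10 of the 30 were tested and 0 were called by edgeR, with 1 at an unadjusted p below 0.05, and 1, F13a1, called without the filter (adjusted p = 0.0275). There the mean was higher in mutants for 23 of 30, against 49.3% of tested genes, and 7 of 30 were separated upwards, against 10.7% of tested and 7.91% of untested genes. The summed level of the 30 averaged 103 CPM in Tbx3-deficient buds and 96.5 CPM in wild type, with overlap, a ratio of 1.07. It averaged 129.6 CPM in Hand2-deficient buds and 105 CPM in wild type, separated, a ratio of 1.23. The most abundant genes weigh most in this sum, with Stab1 at 26.6 CPM and Mertk at 19.7 CPM in Tbx3-deficient buds. Without the filter, the median log2 fold change was 0.82 over 27 genes of the list in the Tbx3 series. In the Hand2 series it was 0.82 over 30 genes.

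Adgre1, which encodes the macrophage marker F4/80, had 0.326, 0.189 and 0.296 CPM in Tbx3-deficient buds, against 0, 0.0866 and 0.0384 CPM in wild type. It had 0.628, 0.350 and 0.472 CPM in Hand2-deficient buds, against 0.0317, 0.349 and 0.181 CPM in wild type. Adgre1 was not called (in the Hand2 series its edgeR adjusted p was 0.187) and not tested in the Tbx3 series. Some genes of this list stood at far higher levels than the 10 markers. Mertk, a receptor for engulfing dying cells, averaged 19.7 CPM in Tbx3-deficient buds and 21.2 CPM in wild type, and 33.3 CPM in Hand2-deficient buds and 31.6 CPM in wild type. Cd163 was listed at 0 in all Tbx3 libraries and in all Hand2 wild types.

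Transcription factors of the myeloid lineage and ligands of the receptors were read in the same way. Of 10 factors tested in the Tbx3 series, 0 were called by edgeR (2 higher and 1 lower at an unadjusted p below 0.05, and none without the filter). In the Hand2 series 10 were tested and 1 was called higher (edgeR adjusted p = 0.032), where 4.68% of all tested genes were. There 3 were higher at an unadjusted p below 0.05, against 15.6% of tested genes, and 1 was called without the filter. Spi1, which encodes PU.1, averaged 0.901 ± 0.119 CPM in Tbx3-deficient buds and 0.552 ± 0.287 CPM in wild type, and 1.01 ± 0.451 CPM in Hand2-deficient buds and 0.591 ± 0.186 CPM in wild type (SD, n = 3 each), with overlap in both series and no call.

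Of 7 ligand genes, 2 were tested in each series. Csf1, which encodes the CSF1R ligand made by many mesenchymal cells, had 6.47, 6.15 and 5.60 CPM in Hand2-deficient buds, against 4.81, 4.08 and 3.64 CPM in wild type, and rose by a log2 fold change of 0.54 (SE 0.128, edgeR adjusted p = 0.0446). In the Tbx3 series it averaged 4.28 ± 0.355 CPM in mutants and 4.54 ± 0.214 CPM in wild type (SD, n = 3 each), with overlap and no call (log2 fold change -0.08, SE 0.140, edgeR adjusted p = 0.828). Cx3cl1, the fractalkine gene, averaged 2.16 ± 0.0868 CPM in Hand2-deficient buds and 1.98 ± 0.0399 CPM in wild type (SD, n = 3 each), and was not called. Il34 was near 0 throughout, with at most 2 counts in a library.

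Among 11 partners of the ITAM adaptors, 4 were tested in the Hand2 series and 2 in the Tbx3 series, and 0 were called by edgeR in either (2 and 1 at an unadjusted p below 0.05, and none without the filter). Fcgr3, which encodes an IgG receptor that signals through the Fc receptor gamma chain, averaged 0.473 ± 0.157 CPM in Hand2-deficient buds and 0.172 ± 0.0725 CPM in wild type (SD, n = 3 each; log2 fold change 1.42, SE 0.411, edgeR adjusted p = 0.0687). Of 10 complement genes, 6 were tested in the Hand2 series and 1 rose, where 4.68% of all tested genes were called higher. This was Cd93 (log2 fold change 0.27, SE 0.0614, edgeR adjusted p = 0.0427), which is also carried by endothelium. C3ar1, the receptor for C3a, had a log2 fold change of 1.73 there (SE 0.443), just outside the threshold (edgeR adjusted p = 0.0514). Without the filter it was called (adjusted p = 0.0425), as was Cd93 (adjusted p = 0.0419), making 2 complement genes. After loss of Tbx3, 4 complement genes were tested and 0 were called (none at an unadjusted p below 0.05, and none without the filter). The summed level of the 10 complement genes was separated upwards in both series, with ratios of 1.08 for Tbx3 and 1.25 for Hand2.

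Of 13 lysosomal genes, which most cells use, 5 were called higher by edgeR in the Hand2 series, where 4.68% of tested genes were. At an unadjusted p below 0.05, 7 were higher, against 15.6% of tested genes. The groups were separated upwards for 8, against 18.6% of tested genes, and downwards for 1. Those called included Hexa, Npc2, Grn and Psap, the last named after its values were seen. The log2 fold changes of these 4 ran from 0.19 for Psap (SE 0.0458) to 0.36 for Hexa (SE 0.0684), against 0.46 to 1.63 for the 10 markers. In the Tbx3 series 0 of 13 were called by edgeR (3 higher and 1 lower at an unadjusted p below 0.05, and none without the filter).

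Marker lists of other cell types also differed between groups, and their part in the result was not tested. In Tbx3-deficient buds the summed level of 8 megakaryocyte genes was 16.4, 38.4 and 41.2 CPM, against 12.2, 6.37 and 11.8 CPM in wild type, separated between groups with a ratio of 3.16. Of the 8, 0 were called by edgeR. At an unadjusted p below 0.05, 7 were higher, against 7.96% of tested genes. Without the filter 5 were called, where 1.81% of genes were. In Hand2-deficient buds the same sum was 13.5, 22.98 and 14.2 CPM, against 13.9, 11.6 and 8.30 CPM in wild type, with overlap.

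The summed level of 8 genes of body wall and coelomic lining ran from 72.8 to 117 CPM in Tbx3-deficient buds, with overlap with wild type (48.5 to 92.8 CPM). There 6 of the 8 were tested, with a median log2 fold change of 1.62, and 0 were called by edgeR. At an unadjusted p below 0.05, 2 were higher and 1 was lower, and without the filter 2 were called higher and 1 lower. In Hand2-deficient buds the sum ran from 99.0 to 115 CPM, above wild type (52.0 to 69.3 CPM), with Gata4 and Tbx18 called. Of 13 genes of hypoxia and glycolysis, 10 of the 12 tested rose in Tbx3-deficient buds, and 1 of 13, Adm, rose in Hand2-deficient buds. The summed level of red cell genes overlapped in both series, and 0 of 11 were called by edgeR (0 at an unadjusted p below 0.05 in either series, and 0 without the filter). Endothelial genes averaged 418 CPM in sum in Tbx3-deficient buds and 400 CPM in wild type, with overlap. Of the 12 genes, 0 were called by edgeR there, and 1 was called higher without the filter. The sum averaged 417 CPM in Hand2-deficient buds and 380 CPM in wild type, separated, with Cdh5 called (edgeR adjusted p = 0.0439, and 0.0694 without the filter). Without the filter 1 gene other than Cdh5 was called higher in that series.

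Granulocyte and mast cell genes summed to 4.30 CPM in Tbx3-deficient buds and 2.31 CPM in wild type, and to 4.36 CPM in Hand2-deficient buds and 3.02 CPM in wild type, separated in both series. Of the 2 tested in the Tbx3 series and the 3 tested in the Hand2 series, 0 were called by edgeR (1 and 2 at an unadjusted p below 0.05, and 0 without the filter). The 6 lymphoid genes summed to 0.436 CPM in Tbx3-deficient buds and 0.673 CPM in wild type, with overlap, and to 1.298 CPM in Hand2-deficient buds and 0.743 CPM in wild type, separated, a ratio of 1.75. The 1 lymphoid gene tested, Rag1, was not called in Hand2-deficient buds (log2 fold change 0.94, SE 0.298, unadjusted p = 0.0159, edgeR adjusted p = 0.0827), and Cd3e, a defining T cell gene, was at 0 in all 12 libraries. The limb mesenchyme list itself summed to 1967 CPM in Tbx3-deficient buds and 2071 CPM in wild type, separated downwards with Tbx5 called lower. It summed to 2518 CPM in Hand2-deficient buds and 2101 CPM in wild type, separated upwards with Prrx2, Lhx9 and Twist1 called higher.

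**Figure D5:**
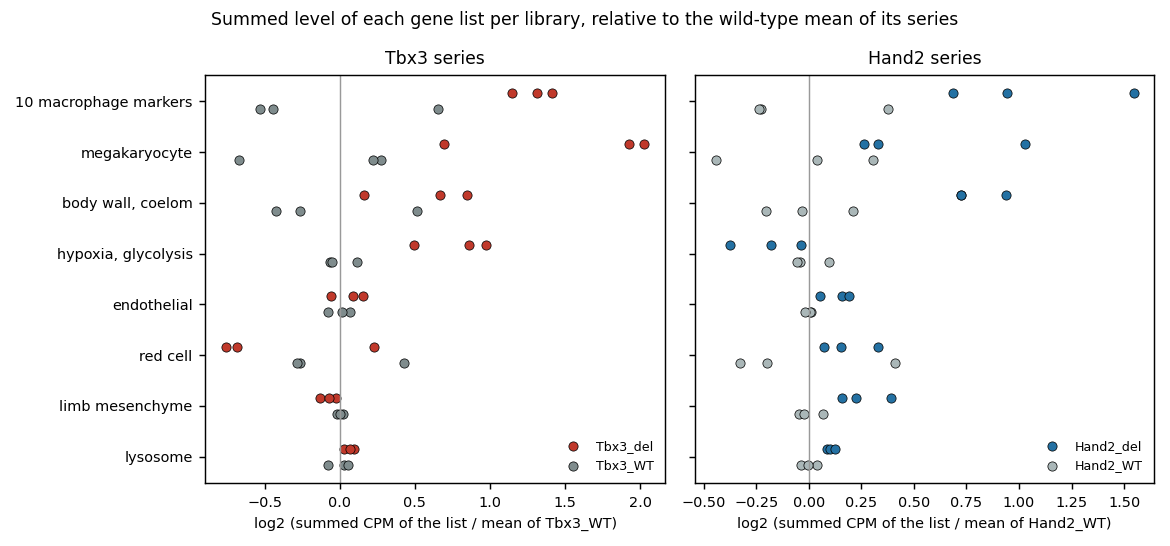
Summed CPM of each gene list in each library on a log2 scale, relative to the wild-type mean of its series, with mutant points drawn above wild-type points. The macrophage markers are separated upwards in both series, the megakaryocyte and hypoxia lists upwards in the Tbx3 series, and the body wall, endothelial and lysosome lists in the Hand2 series, while the limb mesenchyme list is separated downwards in the Tbx3 series and upwards in the Hand2 series.

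Outside the 10 markers, the genes whose log2 level was most like their summed level over the 12 libraries, among 17351 genes, included Cacng4 (Pearson correlation 0.964), Ncf1 (0.953), Nckap1l (0.952), Dok2 (0.945), Cyth4 (0.943), Ttc30b (0.942), Ctsf (0.939), Decr2 (0.939) and Pou2f2 (0.931). Ncf1 encodes a subunit of the phagocyte NADPH oxidase, and Nckap1l a haematopoietic regulator of actin. The likeness is a description over libraries that share group, series and depth.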

How the data were processed

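RNA-seq was done on 12 libraries, 3 per group, each from 1 embryo's forelimb buds. Per the submitters' processing notes, FastQC 0.11.4, STAR 2.5.2, RSEM 1.3.0 and the mm10 build were used, with annotation release and strand setting not given in the sources used here. Per gene, the authors deposited RSEM expected counts, 12.5% to 16.2% of which were not whole, and these were rounded for tests. Symbols came from GENCODE M21 (GRCm38), which matched 53274 of 53465 identifiers. Each series was fitted on its own 6 libraries with edgeR 4.0.16 (TMM scaling, filterByExpr with a minimum count of 10, quasi-likelihood F test, Benjamini-Hochberg adjustment over all genes tested), and the difference of effects on all 12. SE is the log2 fold change divided by the root of F. DESeq2 1.42.0 and limma 3.58.1 (voom) served as alternatives. The code was tested on simulated data. The 10 markers were all named; of the other lists, called genes and then the most abundant were named, except where said, and some genes are not reported here. Adgre1, Spi1, Il34, Cd163, C3ar1, Fcgr3 and Cd3e were chosen after their values were seen. The markers and lists were chosen with earlier results of these data known. Replicates are separate embryos; their litters are not stated. The sum without Csf1r was chosen after seeing the data. Intervals and floors cover counting error only.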

Additional observations from a re-analysis of the deposited data

How the results depend on the processing

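In the Tbx3 series the number of genes called was 153 in the fit reported, 551 by DESeq2, 99 by limma-voom, 504 without the filter, 87 with the replicate block, 22 with embryo sex as a term and 422 in the 12-library fit, and it ranged from 23 to 220 when 1 library was left out. Markers called numbered 0 there, and 1 (Mrc1) by DESeq2 and without the filter. In the Hand2 series it was 1836 genes in the fit reported, 3475 by DESeq2, 161 with the replicate block, 526 with embryo sex and 218 to 2223 with 1 library left out. Markers called numbered 2, and 4 by DESeq2, 0 with the replicate block (adjusted p = 0.101 for C1qb and 0.0967 for Mrc1), 0 with embryo sex, 1 (C1qb) with the Hand2 libraries thinned to the Tbx3 depth and 0 to 5 with 1 library left out. For the difference of effects, 292 genes were called, and 859 by DESeq2, 69 with the replicate block and 123 to 336 with 1 library left out. With no marker called under any setting, the sign of that difference turned for Cx3cr1 (-0.15 by voom, -0.12 with the replicate block, -0.0407 with embryo sex), for C1qc (0.15 by voom, 0.39 thinned) and for Tyrobp (0.0909 with embryo sex). With 1 library left out it ranged from -0.71 to 0.27 for Cx3cr1, -0.56 to 0.26 for Tyrobp, -0.92 to 0.33 for C1qb, -0.68 to 0.56 for C1qc, -0.72 to 0.0819 for Mrc1, -0.19 to 0.33 for Cd68 and -0.55 to 0.0389 for Fcer1g. The cause of these changes was not tested. Replicate numbers came from the labels but same-numbered libraries did not deviate together (correlations from -0.17 to 0.09), so the block does not stand for a pairing. No tested marker's log2 fold change turned sign in either series. At the depth of the Tbx3 series 5 markers were below the filter there, and the Hand2 libraries thinned to that depth kept 9 of 10 markers in the test.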

Other observations

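Once group means were removed, the genes most like the summed marker level over the 12 libraries were Zdhhc23 (Pearson correlation 0.965), Strip2 (0.961), Gm37090 (0.959), Elmod1 (0.954), Fam149b (0.954), Fastk (0.947), Ago1 (0.937), Podxl2 (0.936), Gm47372 (0.936) and Whrn (0.935). Without the 2 farthest libraries these correlations ran from 0.87 to 0.91. They describe these libraries only, and no test was run on them.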
